A study of Homo sapiens with 6 samples.

Results

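The 10 genes described here are the vanins VNN1, VNN2 and VNN3, the pantothenate kinases PANK1, PANK2, PANK3 and PANK4, and the enzymes of the later steps of coenzyme A (CoA) synthesis, PPCS, PPCDC and COASY. They were picked by gene symbol from the 16305 genes measured, and all 10 had passed the filter on low read counts. The choice was made with the fostamatinib against DMSO differences of these libraries known, and VNN3 also stands on a gene list that the study drew from these samples. The differences of the 10 genes are therefore given as a description, with standard errors and with no p-value.

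The study asked which drugs might act on hepatocellular carcinoma that no longer responds to sorafenib, a kinase inhibitor. RNA was sequenced after poly(A) selection from Huh7-R cells (Huh7SR in the labels), which are a pool, not a clone, obtained from the human liver cancer line Huh7 by long culture with sorafenib. One group of 3 samples received fostamatinib, an inhibitor of spleen tyrosine kinase, and the other group of 3 received DMSO, the solvent. Both groups were resistant cells of the same line, were treated for 24 h and carry a dose of 2 µM in the labels, the DMSO group included. The labels say that treatments were applied in triplicate. They do not say whether the cultures were grown apart, so the spread between these samples may be technical. Standard errors and intervals of the differences are moderated: the fit draws each gene's variance toward a trend over all genes. Such an error is therefore not the spread of that gene alone, which the standard deviations (SD) give.

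Coenzyme A carries acyl groups in fatty acid oxidation, fatty acid synthesis and the citric acid cycle, and liver cells hold much of it. Cells make it from pantothenate, a B vitamin: pantothenate kinases add a phosphate and are inhibited by CoA and its thioesters, PPCS joins cysteine to the product, PPCDC removes a carboxyl group, and COASY carries out the last steps. When CoA is broken down to pantetheine outside the cell, vanins split pantetheine into pantothenate, which can be used again, and cysteamine. VNN1 is the vanin best known in liver, where PPARA drives it, and VNN2 is best known on neutrophils.

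The 3 vanin genes lie side by side on the minus strand of chromosome 6, within 82.6 kb of the genome build GRCh37 (hg19). VNN1 (ENSG00000112299) spans chr6:133001988-133035194, VNN3 (ENSG00000093134) spans chr6:133043923-133058074, and VNN2 (ENSG00000112303) spans chr6:133065009-133084598. The gaps are 8.73 kb between VNN1 and VNN3 and 6.93 kb between VNN3 and VNN2. VNN1 and VNN2 are annotated as protein coding, while VNN3 is annotated under the name VNN3P as a transcribed unitary pseudogene, a gene whose RNA is made but whose reading frame is lost in humans. The vanin transcripts were 72% identical between VNN1 and VNN3, 72.5% between VNN2 and VNN3 and 74.7% between VNN1 and VNN2 over their aligned parts. The stretch of exon 3 that is most alike in the 3 genes when they are compared together is shown here, because reads are assigned to a vanin by such differences; capitals mark bases that differ from VNN1, read 5′ to 3′ on the minus strand.
VNN1, chr6:133015238-133015297: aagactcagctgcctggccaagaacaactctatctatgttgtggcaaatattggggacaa
VNN3, chr6:133049989-133050048: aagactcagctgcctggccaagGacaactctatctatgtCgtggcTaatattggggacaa
VNN2, chr6:133077091-133077150: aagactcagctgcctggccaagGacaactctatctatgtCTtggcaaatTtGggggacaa
Over these 60 bases VNN3 differed from VNN1 at 3 positions and VNN2 differed from VNN1 at 5. Over the whole canonical transcripts the longest run of identical bases was 46 between VNN1 and VNN3, 40 between VNN2 and VNN3 and 26 between VNN1 and VNN2. No window of 50 bases was shared between any 2 of the vanins, nor between any 2 of the pantothenate kinases.

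PANK1, PANK2 and PANK3 each carry a microRNA gene in intron 5, on the strand of the host. MIR107 lies in PANK1 (chr10:91352500-91352586), MIR103A2 in PANK2 (chr20:3898141-3898218) and MIR103A1 in PANK3 (chr5:167987897-167987982). The mature forms are printed from RefSeq (GRCh38.p14), with the seed, bases 2 to 8, in capitals, because they show what the host genes have in common beyond the enzyme.
hsa-miR-107 (PANK1): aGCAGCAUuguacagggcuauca
hsa-miR-103a-3p (PANK2 and PANK3): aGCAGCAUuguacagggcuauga
Both share the seed GCAGCAU, and neither hairpin overlaps an annotated exon of its host, so reads counted on the host exons do not measure them. The microRNA genes themselves were not analysed here.

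Each library held 13303451 to 15272737 reads on the genes that passed the filter. The deposited values are log2 CPM, which divides the reads of a gene by the size of its library, and every value could be turned back into a whole number of reads. Among all genes 47.8% were called different between the groups at an adjusted p under 0.05 in limma, 24.5% lower and 23.3% higher after fostamatinib, and the median log2 fold change of all genes was 0.00. All 8 hepatocyte lineage markers (ALB, AFP, APOA1, APOB, TTR, SERPINA1, TF and HNF4A) were present and rose, with a summed level of 4140 to 4410 CPM in the DMSO samples and 5320 to 5660 CPM in the fostamatinib samples. Of 6 myeloid markers, for the cells in which VNN2 is best known, PTPRC, CSF3R and FCGR3B were not analysed here, and ITGAM, CD14 and LYZ summed to 17.7 to 19.0 CPM with DMSO and 15.1 to 17 CPM with fostamatinib. ITGAM fell from 106, 138 and 117 reads to 77, 77 and 70 (log2 fold change -0.59, SE 0.133, adjusted p = 3.63e-04), while LYZ at 0.01 (SE 0.113) and CD14 at -0.17 (SE 0.582) were not called. Whether the changes in these markers have a part in the values of the 10 genes was not tested.

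Of the 10 genes, 7 were called different, 5 lower and 2 higher after fostamatinib, and the same 7 were those whose groups did not overlap. Over all genes the share without overlap was 54.1%, with 27.4% lower and 26.8% higher. VNN3 was the single one of the 10 that was called and differed by at least 2-fold, against 7.13% of all genes in either direction and 3.29% lower. The median log2 fold change of the 10 genes was -0.13. By role, the 3 vanins were all lower (median -0.56), the 4 kinases were mixed (2 lower, 1 higher and 1 not called, median -0.04), and of the 3 later enzymes 1 was higher and 2 were not called (median -0.01). In bulk RNA, fewer cells that express a gene and less RNA per cell cannot be told apart.

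**Figure D1:**
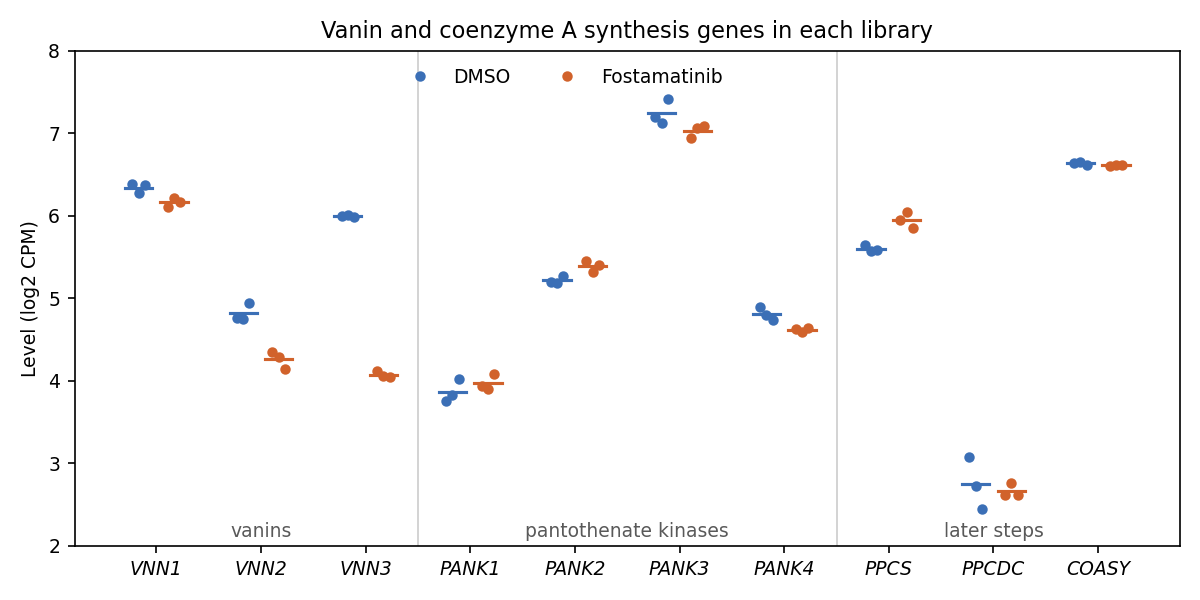
Level of each gene in each library (log2 CPM, y axis), with DMSO samples in blue, fostamatinib samples in orange and the mean of 3 samples as a bar. VNN3 moved from 5.99 to 6.01 in the DMSO samples down to 4.04 to 4.12 in the fostamatinib samples, while COASY stayed between 6.60 and 6.65 in all 6.

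VNN3 showed the widest gap of the 10 genes. Its reads numbered 881, 985 and 946 with DMSO and 238, 237 and 217 with fostamatinib. The groups lay far apart, and the replicates of each group lay close together. On the log2 CPM scale the level was 6.0 ± 0.01 (SD, n = 3) with DMSO and 4.07 ± 0.041 with fostamatinib. This is a log2 fold change of -1.93 (SE 0.0656), a 3.81-fold lower level. It stayed between -1.95 and -1.92 whichever sample was left out.

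VNN2, the vanin also called GPI-80, came next. It had 372, 410 and 455 reads with DMSO and 280, 278 and 233 with fostamatinib. The highest fostamatinib sample lay below the lowest DMSO sample, and DMSO replicate 3 stood above the other two. The level was 4.81 ± 0.107 log2 CPM with DMSO and 4.26 ± 0.108 with fostamatinib. That is a log2 fold change of -0.56 (SE 0.0804), or 1.47-fold lower.

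VNN1, the liver pantetheinase, differed least among the vanins. Its reads were 1149, 1178 and 1229 with DMSO and 948, 1064 and 956 with fostamatinib. The groups did not overlap, although the gap was narrow, from 6.27 log2 CPM in DMSO replicate 2 to 6.22 in fostamatinib replicate 2. From 6.34 ± 0.061 log2 CPM with DMSO the level went to 6.17 ± 0.058, a log2 fold change of -0.17 (SE 0.052), or 1.13-fold lower. The call for VNN1 was lost when the fit used no mean-variance trend.

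Ratios of reads within a library do not depend on how libraries were scaled, and they show the vanins changing unequally. VNN3 had 0.767, 0.836 and 0.77 reads for each VNN1 read with DMSO and 0.251, 0.223 and 0.227 with fostamatinib. VNN3 went from more reads than VNN2 to fewer, with 2.28 ± 0.178 reads per VNN2 read with DMSO and 0.878 ± 0.0462 with fostamatinib. This order takes no account of gene length. Per kilobase of canonical transcript VNN3 stayed above VNN2, at 42.6 against 14.0 with DMSO and 11.1 against 9.51 with fostamatinib. Per kilobase of all annotated exons the 2 genes overlapped with DMSO (10.6 and 10.9). VNN2 had 0.347 ± 0.0232 reads per VNN1 read with DMSO and 0.267 ± 0.0263 with fostamatinib, a smaller shift of the same sign. As a share of all vanin reads, VNN3 made up 37% ± 1.18 with DMSO and 15.6% ± 0.622 with fostamatinib. VNN1 made up 46.8% ± 1.03 and 66.7% ± 1.77, so most vanin reads came from VNN1 after fostamatinib. The share of VNN2 was 16.2% ± 0.945 and 17.8% ± 1.27, and its samples overlapped between the groups.

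**Figure D2:**
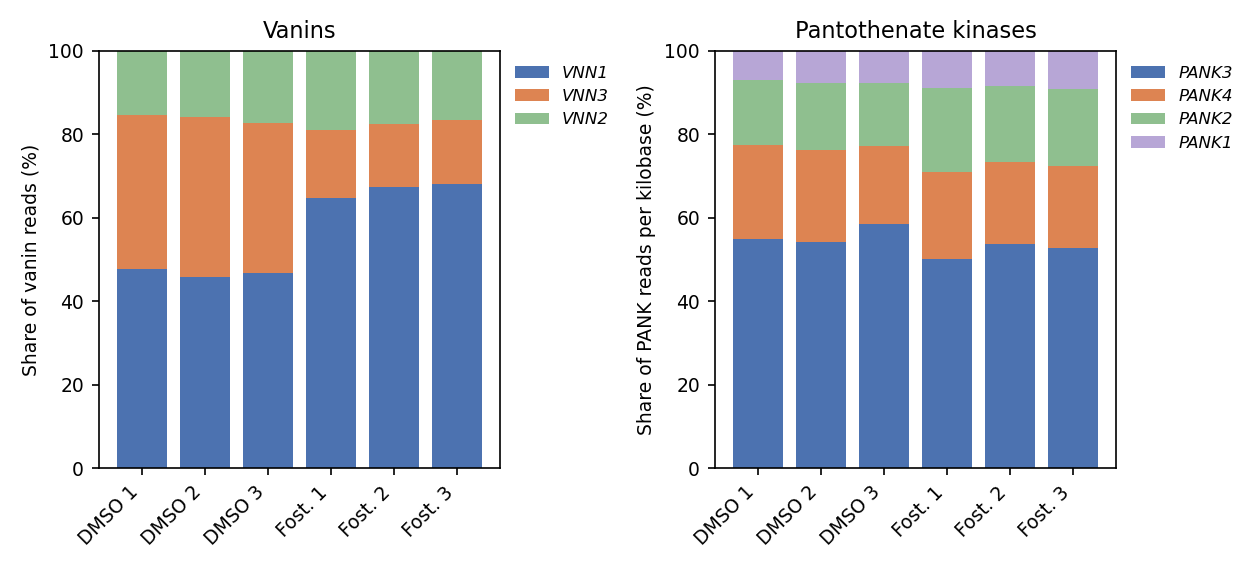
Share of each vanin in the vanin reads (left, %) and of each kinase in the PANK reads per kilobase of exon (right, %), one bar per library. The VNN3 part narrows from 36.0% to 38.3% in the DMSO samples to 15% to 16.2% in the fostamatinib samples, while the PANK3 part stays the largest of its family in all 6.

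The pantothenate kinases split in direction. PANK3, a cytosolic kinase, had the most reads of the 10 genes, with 2029, 2137 and 2533 with DMSO and 1690, 1906 and 1806 with fostamatinib. Its level went from 7.25 ± 0.147 to 7.03 ± 0.08 log2 CPM. The groups did not overlap, but DMSO replicate 3, at 7.41, stood above the other DMSO samples at 7.20 and 7.13. Its log2 fold change was -0.22 (SE 0.0536), and it was -0.13 without that replicate, where the call was kept. The call for PANK3 was lost with no mean-variance trend.

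PANK4, which is grouped with the kinases by sequence but lacks kinase activity, was lower as well. Its reads were 407, 425 and 394 with DMSO and 341, 343 and 329 with fostamatinib, so every fostamatinib sample was below every DMSO sample. The level was 4.81 ± 0.078 and 4.62 ± 0.025 log2 CPM, a log2 fold change of -0.19 (SE 0.0728). This call was lost in 5 of the 6 fits that left out a sample, all but the one without DMSO replicate 3, with log2 fold changes of -0.22 to -0.15 over the 6 fits.

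PANK2, the kinase of mitochondria whose loss causes a neurodegeneration with iron in the brain, was higher. It had 505, 555 and 571 reads with DMSO and 599, 568 and 558 with fostamatinib. Raw reads overlapped between the groups, whereas on the log2 CPM scale the lowest fostamatinib sample (5.32) was above the highest DMSO sample (5.27). The mean went from 5.22 ± 0.043 to 5.39 ± 0.065 log2 CPM, a log2 fold change of 0.17 (SE 0.0627). The call was lost without DMSO replicate 1, DMSO replicate 2, fostamatinib replicate 1 or fostamatinib replicate 3, where the log2 fold change was 0.14 to 0.17, and with no mean-variance trend. PANK2 shares 2579 exon bases, 28.3% of its exon length, with RNF24 on the opposite strand. RNF24 fell from 663, 759 and 635 reads to 423, 398 and 423 (adjusted p = 1.29e-09, limma). The library kit marks strand, but whether strand was used in counting is not given in the sources used here. Whether the shared bases add reads to the PANK2 count or take reads from it was not tested.

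PANK1, which is known as a PPARA target in liver, was the lowest of the kinases. Its reads were 185, 216 and 241 with DMSO and 211, 213 and 223 with fostamatinib, and the groups overlapped. Its log2 fold change was 0.11 (SE 0.0954), with a 95% interval of -0.09 to 0.30 for the difference.

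Per kilobase of all annotated exons, the mean shares of the kinases had the same order in both groups; per kilobase of canonical transcript PANK1 and PANK2 overlapped. PANK3 made up 55.9% ± 2.32 of the family with DMSO and 52.2% ± 1.77 with fostamatinib, with no overlap between the groups. PANK4 made up 18.6% to 22.5% with DMSO and 19.6% to 20.7% with fostamatinib, and its groups overlapped. PANK2 took 15.5% ± 0.504 with DMSO and 18.9% ± 1.10 with fostamatinib. PANK1 took 7.58% ± 0.429 and 8.86% ± 0.363. These shares depend on the length used, and PANK3 made up less of the family per kilobase of canonical transcript. By that length PANK3 was at 14.8 against 10.6 for PANK4 with DMSO, and at 12.7 against 9.3 with fostamatinib. Per kilobase of all annotated exons the values were 14.7 against 5.51 with DMSO and 12.7 against 4.84 with fostamatinib. The ratio of PANK3 to PANK2 reads was 4.02, 3.85 and 4.44 with DMSO and 2.82, 3.36 and 3.24 with fostamatinib, with no overlap between the groups.

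Of the later enzymes, PPCS, which joins cysteine to phosphopantothenate, was higher. It had 685, 724 and 714 reads with DMSO and 850, 940 and 764 with fostamatinib. No sample overlapped, and fostamatinib replicate 3 was the lowest of its group at 5.85 log2 CPM, against 5.64 in the highest DMSO sample. The level went from 5.60 ± 0.035 to 5.95 ± 0.097 log2 CPM, a log2 fold change of 0.35 (SE 0.0582) or 1.28-fold higher. The fold change stayed between 0.30 and 0.40 on the log2 scale with any sample left out.

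PPCDC, the decarboxylase, had the fewest reads of the 10 genes and the widest spread. It had 116, 100 and 80 reads with DMSO and 84, 96 and 81 with fostamatinib. The DMSO samples alone ran from 3.08 to 2.44 log2 CPM and held the fostamatinib samples between them. The log2 fold change of -0.08 (SE 0.148) had a 95% interval of -0.38 to 0.22, and it was 0.09 without DMSO replicate 1.

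COASY, the enzyme of the last steps, varied least. Its reads were 1372, 1529 and 1451 with DMSO and 1338, 1403 and 1307 with fostamatinib. On the log2 CPM scale the means were 6.63 ± 0.019 and 6.62 ± 0.011, and the groups overlapped. The difference was -0.01 on the log2 scale (SE 0.0461), with a 95% interval of -0.11 to 0.08. Because COASY varied so little, the ratio of PPCS to COASY reads shows the PPCS difference within each library: 0.499, 0.474 and 0.492 with DMSO and 0.635, 0.67 and 0.585 with fostamatinib.

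**Figure D3:**
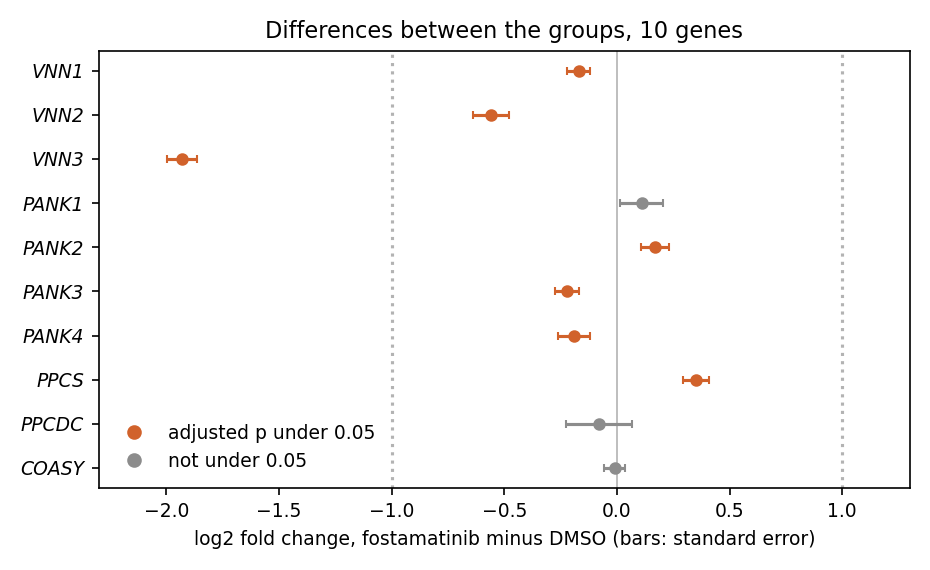
Log2 fold change of each gene, fostamatinib minus DMSO (x axis), with the standard error as a bar; dotted lines mark a 2-fold difference, and orange marks genes called at an adjusted p under 0.05. VNN3 at -1.93 is the single gene past the 2-fold line, and the other called genes lie between -0.56 and 0.35.

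Levels were compared between genes per kilobase of all annotated exons (RPKM). The exon lengths are from GENCODE version 44, while reads had been counted on version 22. A length may thus include exons on which no reads were counted. With DMSO the order was COASY (24.6 ± 0.33), VNN1 (21.0 ± 0.881), PANK3 (14.7 ± 1.54), PPCS (14.2 ± 0.344), VNN2 (10.9 ± 0.82), VNN3 (10.6 ± 0.0755), PANK4 (5.51 ± 0.299), PANK2 (4.07 ± 0.122), PANK1 (2.00 ± 0.198) and PPCDC (1.81 ± 0.408). PANK3 overlapped with PPCS, VNN2 with VNN3, and PANK1 with PPCDC. With fostamatinib VNN3 (2.79 ± 0.0796) stood in the eighth place, between PANK2 (4.58 ± 0.204) and PANK1 (2.15 ± 0.136). PPCS (18.1 ± 1.22) then overlapped with VNN1 (18.7 ± 0.746), and PANK4 (4.84 ± 0.0847) with PANK2. The place of VNN3 depends on the length used, since its annotated exons cover 6019 bases and its canonical transcript 1505. Per kilobase of canonical transcript VNN3 was the highest of the 10 genes with DMSO (42.6 ± 0.302, against 40.0 ± 0.537 for COASY) and in the fifth place with fostamatinib (11.1 ± 0.318). PPCDC was the lowest under either length in both groups.

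Further overlaps with other genes touch these levels. PANK3 shares 1451 exon bases (14.0%) with the pseudogene SLC2A3P1 on the same strand, which was not analysed here. PPCS shares 264 bases (7.74%) with CCDC30, which had 14 to 37 reads, far under those of PPCS. VNN1, VNN3, PANK1, PANK4, PPCDC and COASY had no window of 50 bases in the canonical transcript that occurs in a transcript of another gene.

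**Figure D4:**
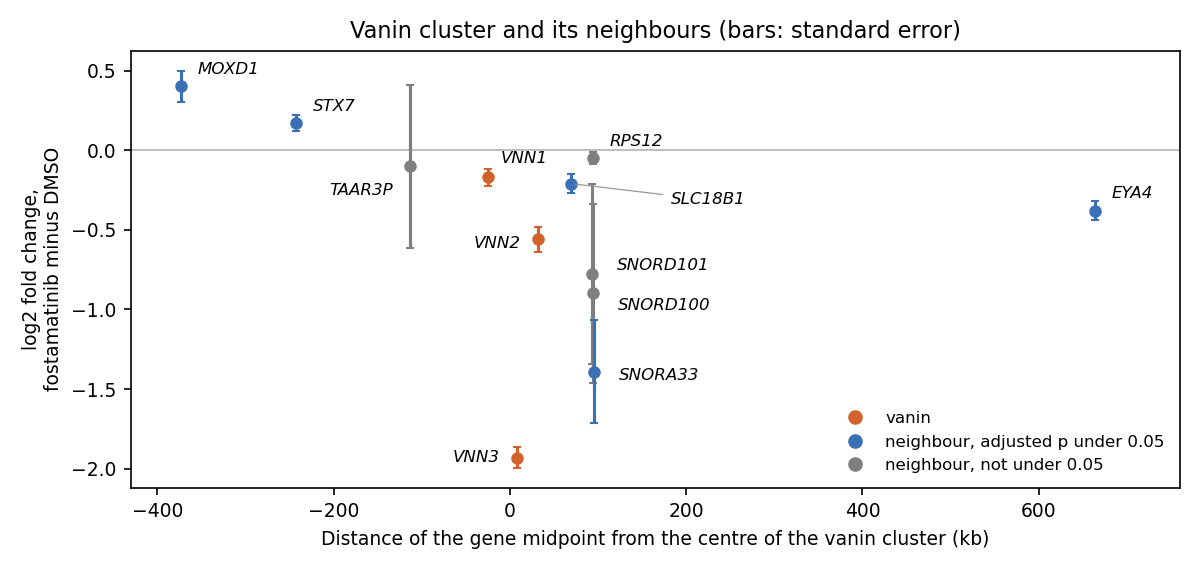
Log2 fold change, fostamatinib minus DMSO (y axis, bars are standard errors), against the distance of each gene's midpoint from the centre of the vanin cluster (kb, x axis). VNN3 lies lowest at -1.93, while the genes on either side of the cluster lie between -1.39 and 0.40.

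The genes next to the vanins were examined to see whether the difference at VNN3 was shared along the chromosome. Of 9 neighbours within 500 kb, 3 fell, 2 rose and 4 were not called, with a median log2 fold change of -0.21. Over all genes 47.8% were called, 24.5% lower and 23.3% higher, so a mix of calls is common at any place. The nearest to VNN2, SLC18B1, a vesicular polyamine transporter 5.90 kb away, fell by 0.21 on the log2 scale (SE 0.0575, adjusted p = 0.00326). That is less than VNN2 and VNN3 differed, and near VNN1 at -0.17 (SE 0.052). EYA4 fell by 0.38 (SE 0.0591, adjusted p = 1.63e-06), MOXD1 rose by 0.40 (SE 0.0994, adjusted p = 9.74e-04) and STX7 by 0.17 (SE 0.0478, adjusted p = 0.00329). The calls for SLC18B1 and STX7 were lost with no mean-variance trend. In that fit 3 neighbours were called lower and 1 higher, so a neighbour not called before gained a call there. RPS12, a ribosomal protein gene with 10127 to 13088 reads, was at -0.05 (SE 0.036). The small nucleolar RNAs of its introns had few reads in these libraries, which were made after poly(A) selection. Whether such reads came from them or from RPS12 RNA was not tested. SNORA33 fell from 22 to 30 reads to 7 to 10 (adjusted p = 5.03e-04). SNORD100 at -0.90 (SE 0.563), SNORD101 at -0.78 (SE 0.565) and the pseudogene TAAR3P at -0.10 (SE 0.512) were not called.

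The genes whose pattern over the 6 samples was most like that of each vanin were found by the root mean square difference of centred log2 CPM, among 14187 genes. For VNN3 they included CYTOR (0.0381) and HCAR3 (0.0476), with log2 fold changes of -1.89 and -1.86. HCAR3 has a near-identical neighbour gene, HCAR2, so its reads are uncertain. For VNN2 they were GALNT13 (0.0293), DHRS13 (0.036) and NAA25 (0.0374), and for VNN1 they were SMC2 (0.0169), SNRNP48 (0.0173) and MBTPS2 (0.0222). The likeness rests on 6 libraries in 2 groups, which all genes share.

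The genes around CoA were taken from 10 lists with 64 genes measured. Of these, 19 fell, 22 rose and 23 were not called, with a median log2 fold change of -0.03. The shares over all genes are those given above. The lists were chosen with earlier results of these data known, so the adjusted p-values of their genes are a description and not independent support.

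On the way in, SLC5A6, the sodium-dependent transporter that brings pantothenate into cells, fell from 803, 812 and 812 reads to 461, 394 and 383 (log2 fold change -0.89, SE 0.068, adjusted p = 2.53e-13). SLC25A42, the carrier that takes CoA into mitochondria, rose from 265, 275 and 276 reads to 768, 769 and 725 (1.56, SE 0.0665, adjusted p = 2.70e-20). The other transporter of that list, SLC25A16, was at -0.04 and was not called. All 4 cysteine supply genes, which provide the amino acid that PPCS uses, fell (median -1.34), with SLC7A11 at -1.76, CTH at -1.69 and CBS at -0.99 (adjusted p = 1.05e-20, 5.43e-16 and 1.64e-16). PPCS itself was higher in the same libraries.

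Of 5 genes that break CoA down, 3 fell and none rose (median -0.24): NT5E at -0.68, NUDT19 at -0.24 and ENPP1 at -0.21 (adjusted p = 3.28e-04, 0.00315 and 7.08e-04). For cysteamine, the other product of vanins, and taurine, 1 of 4 genes fell and 2 rose (median 0.22). ADO, which oxidises cysteamine, fell by 0.46 (SE 0.0713, adjusted p = 1.64e-06), while BAAT, which joins bile acids to taurine or glycine, rose from 13, 31 and 20 reads to 71, 61 and 60 (log2 fold change 1.73, adjusted p = 1.25e-07) and the taurine transporter SLC6A6 was called higher by 0.15 (adjusted p = 0.016). The groups overlapped for SLC6A6, and its call was lost without DMSO replicate 1 (0.103), without fostamatinib replicate 3 (0.10) and with no mean-variance trend. Among 4 relatives of the vanins in the nitrilase family, BTD rose by 0.58 and NIT1 by 0.46 (adjusted p = 7.65e-06 and 4.75e-06), and 2 were not called (median 0.17).

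Of 9 genes that attach, carry or act on the phosphopantetheine arm of CoA, 2 fell and 7 were not called (median -0.06). They were ALDH1L2, a mitochondrial folate enzyme that carries this arm, with 489, 498 and 492 reads against 90, 95 and 112 (-2.23, SE 0.0981, adjusted p = 6.40e-20), and AASDHPPT, the enzyme that attaches it, at -0.16 (adjusted p = 0.0148), whose call was lost without fostamatinib replicate 3 (-0.15). Of 14 acyl-CoA synthetases 5 fell and 5 rose (median 0.02), among them ACSL1 at -0.92 and ACSF2 at 1.05. SLC27A2 at -1.23 and SLC27A5 at -1.05 had at most 22 reads in a sample, and the call for SLC27A5 was lost in 4 alternatives. Of 10 thioesterases 2 fell and 4 rose (median 0.16), with ACOT7 at -0.45, ACOT8 at 0.45 and ACOT12 at 2.17 on 2 to 25 reads. Of 6 acyl-CoA binding proteins 4 rose (median 0.31), led by ACBD7 at 1.06 on 10 to 28 reads and ACBD4 at 0.91. Of the 5 PPAR regulators, 4 rose and PPARG fell (median 0.56). PPARA, known to drive VNN1 and PANK1 in liver, was at 0.89 (adjusted p = 8.05e-08) and its coactivator PPARGC1A at 0.92 (adjusted p = 8.16e-06). These are RNA levels and do not measure receptor activity. Whether PPARA has a part in the values of VNN1 (-0.17) and PANK1 (0.11) was not tested.

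**Figure D5:**
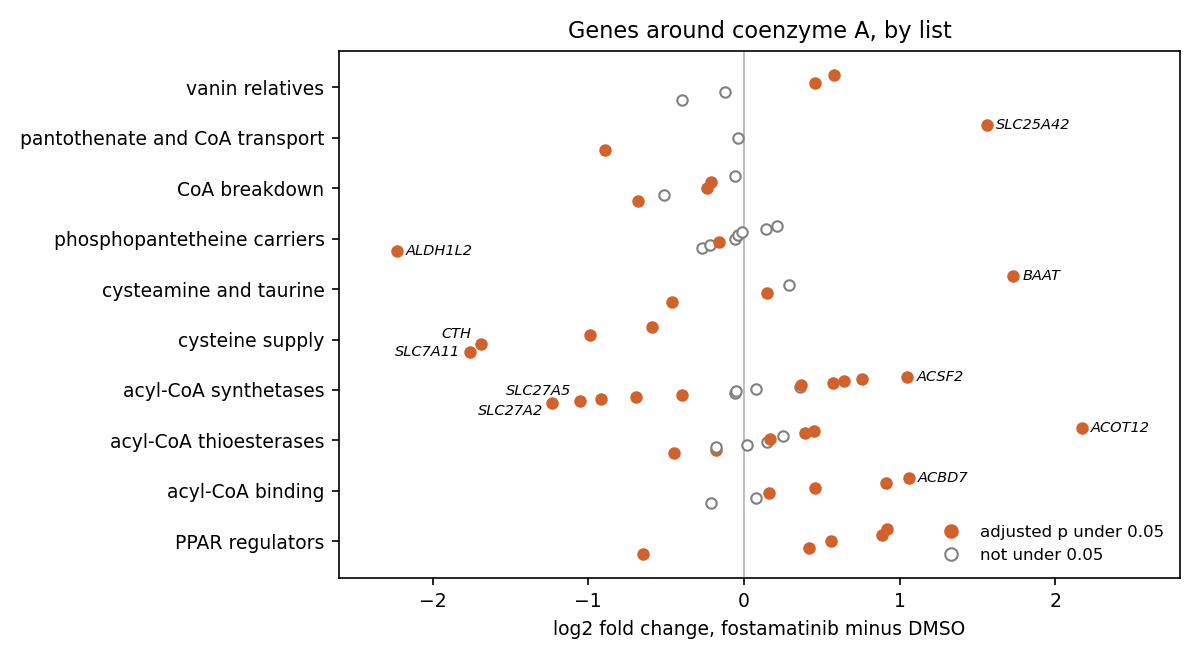
Log2 fold change of each measured gene in 10 lists around CoA (x axis, fostamatinib minus DMSO), one row per list; filled points passed an adjusted p under 0.05 and names mark called genes with a difference of at least 2-fold. The cysteine supply genes all lie below 0, and the 5 PPAR regulators lie above it except PPARG at -0.65.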

How the data were processed

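RNA-seq libraries of 3 DMSO and 3 fostamatinib samples were used, grouped by the sample titles. Per the labels and the study's methods, the authors aligned with HISAT (hg19), used featureCounts with GENCODE version 22 for counting, and dropped genes that had under 5 reads in 2 or more of the 3 samples of each group. TMM factors scaled the libraries. Each deposited value is log2 CPM, to which the authors had added 0.5 per count. Recovered reads lay within 0.05 of a whole number for 100% of the values. One ribosomal RNA gene listed repeatedly was used once.

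Linear models were fitted to the deposited log2 CPM of 16305 genes with limma 3.58.1 in R 4.3.3 (lmFit, eBayes with trend, treatment as the single term, Benjamini-Hochberg adjustment over all genes, called at adjusted p under 0.05), after the script was tested on simulated data. Other values were computed with Python 3.11.15, numpy 2.4.6, pandas 2.3.3, scipy 1.17.1 and Biopython 1.88, and plots with matplotlib 3.10.9. RPKM used the union of annotated exons, from GENCODE version 44 on GRCh37, in which 98.7% of gene identifiers were found. Standard errors and intervals of the log2 fold changes are moderated by eBayes, which draws each gene's variance toward the trend over all genes. They can lie above or below what the SDs of a gene would give. For COASY the standard error was 0.0461, with SDs of 0.019 (DMSO) and 0.011 (fostamatinib). For PANK3 it was 0.0536, with SDs of 0.147 and 0.08. Groups of 3 limit the precision of each value, and reads give counting error only.

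The members and gene lists were chosen with earlier results of these data known. Named were all members; from each list up to 3 called genes per direction with the largest change (10 reads or more on average in the higher group), and called genes changed at least 2-fold; all neighbours within 500 kb; and the 3 nearest patterns per vanin among genes averaging 10 reads or more over all samples. One gene that meets this rule is not reported here. List genes without a row in the filtered tables were not analysed here.

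Alternatives were other scalings, a stricter filter, a prior count of 2, limma-voom on recovered reads, no trend, a replicate block, and the omission of each sample. An unfiltered run was not made because the deposited tables are already filtered.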

Additional observations from a re-analysis of the deposited data

How the results depend on the processing

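The direction and call of the 10 genes held in 117 refits (a gene under an alternative), the call was lost in 12 and the sign changed in 1. Without a mean-variance trend 3 members were called lower and 1 higher, with VNN1, PANK2 and PANK3 no longer called, and 1 vanin neighbour was called higher. With each sample left out, 4 to 5 members were called lower and 1 to 2 higher. Among the genes named, signs changed only for PPCDC, TAAR3P and SNORD101, which were not called: with each sample left out, PPCDC ran from -0.233 to 0.088, the highest without DMSO replicate 1, TAAR3P from -0.645 to 0.733, the highest without fostamatinib replicate 1, and SNORD101 from -1.195 to 0.029, the highest without fostamatinib replicate 3. TAAR3P was at 0.0 with a prior count of 2. The cause was not tested.

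The replicate number as a block gave 5 members lower and 2 higher, as without it, and 7977 genes called instead of 7794. Same-numbered samples did not deviate together (correlations of deviations 0.0365, -0.0213 and 0.0371 over 12249 genes), so the numbers were not taken to pair them. Other scalings moved the median of all genes by at most 0.011 on the log2 scale. Among the members PPCDC, with the fewest reads, carried the widest error. Levels per kilobase of canonical transcript, chosen after seeing the data, moved for most members, VNN3 the most.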
